A study of Homo sapiens with 4 samples.

Results

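Aminoacyl-tRNA synthetases are the enzymes that load each tRNA with its amino acid, and the genes described here are those whose symbol in the deposited target names follows the synthetase nomenclature (a letter with ARS and an optional 1, 2 or 3, or EPRS1, FARSA or FARSB). This rule found 38 genes of 20322 targets: 20 for cytosolic enzymes (suffix 1, or the FARSA and FARSB subunits), 17 for mitochondrial enzymes (suffix 2) and TARS3, a cytosolic paralog of the threonyl enzyme. RNA came from HT-29, a human colorectal adenocarcinoma line that the labels trace to a mouse liver metastasis. CRISPR/Cas9 had been directed at IMP1 (gene IGF2BP1, an oncofetal RNA-binding protein) in every sample. The null group (2 libraries) carried the empty PiggyBac vector PB*-empty. The IMP1-OE group (2 libraries) carried PB*-FLAG-IMP1-short UTR, which supplies a tagged IMP1. All cells were kept under puromycin. The sources used here name neither the vector's promoter nor the number of clones. They do not say that replicates were separate cultures either, so p-values reflect the spread between these libraries only, and that spread may be technical.

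Each synthetase recognises an amino acid, activates it with ATP and transfers it to the matching tRNA. Cells of animals keep separate nuclear genes for most cytosolic and mitochondrial enzymes, whereas GARS1 and KARS1 serve both compartments. A group of cytosolic enzymes is held together on scaffold proteins in the multisynthetase complex. When charged tRNA runs short or the endoplasmic reticulum is stressed, phosphorylation of eIF2 increases translation of ATF4, a transcription factor that raises many cytosolic synthetase genes along with genes of amino acid synthesis and uptake.

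Library totals ran from 9343429 to 10594813 estimated counts, and every synthetase gene passed the low-count filter, with 20 counts (TARS3 in null replicate 2) as the smallest value in any library. Values in CPM are read counts scaled by TMM to a common library size, given per library or as mean ± SD (n = 2 per group). IGF2BP1 was at 3.62 and 1.75 CPM in null and at 6.76 and 10.6 CPM in IMP1-OE, an order that follows the labels (log2 fold change 1.67, SE 0.53, edgeR adjusted p = 0.428). Epithelial markers were abundant (KRT8 from 9484 to 12826 CPM, EPCAM from 823 to 1049 CPM), but the intestinal factor CDX2 had only 47 and 2 counts in null and 0 and 3 in IMP1-OE. The immune markers CD3E and PTPRC had 0 counts in all null libraries and in IMP1-OE replicate 1, and PTPRC had 5 in IMP1-OE replicate 2. The other 3 of the 5 immune markers, CD14, CD68 and LYZ, passed the low-count filter, and all 3 were lower in IMP1-OE (median log2 fold change -0.84). LYZ was abundant (12591 to 28605 counts), as was SERPINA1 of the hepatocyte list (2056 to 7622 counts). The hepatocyte markers ALB and APOA1 had 0 counts in every library.

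No synthetase gene differed between IMP1-OE and null past an edgeR adjusted p of 0.05. The smallest adjusted p was 0.397 (CARS1), and among all 12113 genes tested 0.00826% passed, which is COL9A3 alone. At an unadjusted p under 0.05, 3 of 38 synthetase genes were lower (7.89%, where 6.18% of all tested genes were) and 2 were higher (5.26%, where 4.56% were), so the share that stood out was near that of all genes. In the authors' deposited table, an adjusted p under 0.05 was held by 0 of 38, where 1.28% of genes had one. DESeq2 on the counts called 0 of 38 too, where it called 1.28% of the genes with an adjusted p (164). Its adjusted p matched that of the authors' deposited table for AARS1 (0.879) and IGF2BP1 (0.292). It thus repeats the authors' test and is not separate support. The median log2 fold change of the 38 genes was -0.09, beside -0.02 for all tested genes, and 55.3% of them lay below 0, beside 52.0% of all tested genes. As a family, then, the synthetase mRNAs stood close to the rest of the transcriptome, and the differences lay between its members.

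**Figure D1:**
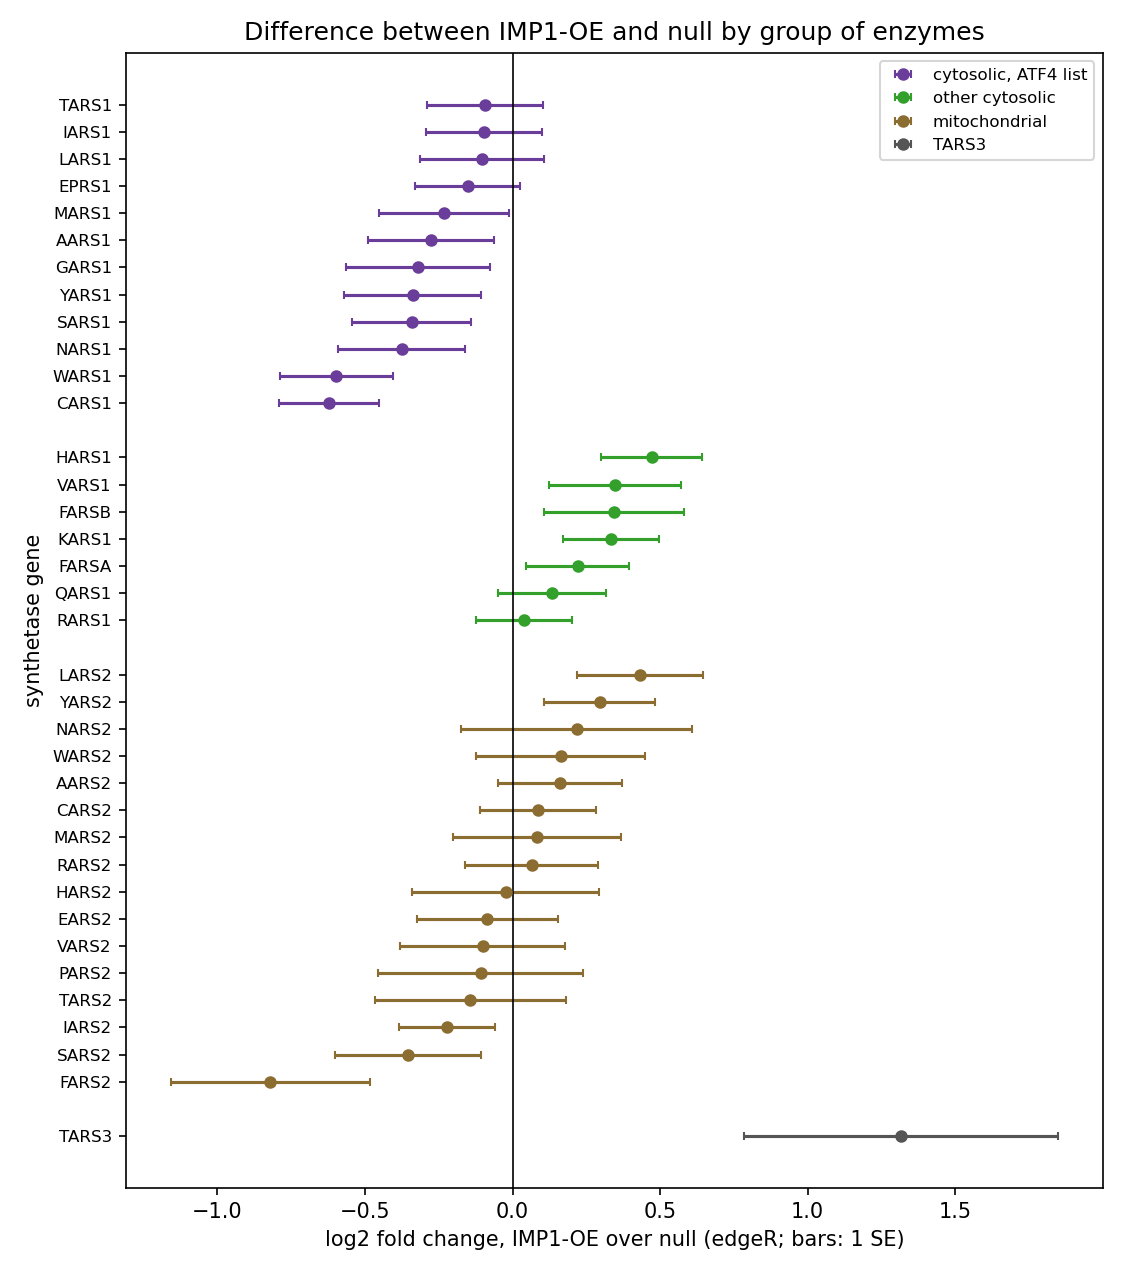
Log2 fold change of 36 synthetase genes, IMP1-OE over null (x axis, edgeR estimate; bars show 1 SE), with genes on the y axis grouped as cytosolic enzymes of the ATF4 list, other cytosolic enzymes, mitochondrial enzymes and TARS3. The 12 genes of the ATF4 list all lie below 0 and the 7 other cytosolic genes drawn all lie above 0, while the 16 mitochondrial genes drawn lie on both sides.

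With all libraries, the cytosolic genes separated by whether the enzyme is widely reported as ATF4-dependent. All 12 genes of that list (AARS1, CARS1, EPRS1, GARS1, IARS1, LARS1, MARS1, NARS1, SARS1, TARS1, WARS1 and YARS1) had a lower mean in IMP1-OE, with log2 fold changes from -0.62 to -0.09 and a median of -0.30. All 8 other cytosolic genes (among them FARSA, FARSB, HARS1, KARS1, QARS1, RARS1 and VARS1) had a higher mean, from 0.04 to 0.47 with a median of 0.34. The groups did not overlap for 4 of the 12, all lower in IMP1-OE, where 21.9% of all tested genes lay apart in that direction. They did not overlap for 7 of the 8, all higher in IMP1-OE, where 21.3% of tested genes lay apart in that direction. Single genes did not pass the adjusted threshold, and the list was drawn up with earlier results on stress genes of these data known.

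CARS1, which charges cysteine tRNA, gave the smallest p of the family. Null gave 172 and 176 CPM, and IMP1-OE gave 123 and 104 CPM. Both IMP1-OE libraries were below both null libraries, and the null libraries hardly differed. The difference was 1.54-fold (log2 fold change -0.62, SE 0.17, edgeR adjusted p = 0.397). Leaving out null replicate 1 gave -0.64 and leaving out null replicate 2 gave -0.60, so it did not rest on a single null library.

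WARS1, the tryptophan enzyme, is also known as an interferon-induced gene. It was at 127 and 148 CPM in null and at 101 and 81.5 CPM in IMP1-OE, again with no overlap. The log2 fold change was -0.60 (SE 0.19, edgeR adjusted p = 0.428). In these libraries 23 interferon-stimulated genes summed to 1256 CPM in null replicate 1, 8789 CPM in null replicate 2, and 1033 and 1306 CPM in IMP1-OE. All 23 were lower in IMP1-OE, IFIT2, DDX58, IFI44 and MX1 with the smallest p among them, and their median log2 fold change of -2.46 became -0.18 when null replicate 2 was left out. That of WARS1 then was -0.48, and it was -0.70 with null replicate 1 left out. WARS1 was highest in null replicate 2. Null replicate 1, whose interferon genes were near the IMP1-OE level, stood above both IMP1-OE libraries as well. The part of the interferon difference in the level of WARS1 was not tested.

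SARS1, the serine enzyme, and NARS1, the asparagine enzyme, were the other members of the list whose groups lay apart. SARS1 was at 363 and 265 CPM in null and at 260 and 236 CPM in IMP1-OE. NARS1 was at 312 and 215 CPM in null and at 205 and 201 CPM in IMP1-OE. For both genes null replicate 2 lay just above the IMP1-OE libraries and null replicate 1 far above them. Their log2 fold changes were -0.34 (SE 0.20, edgeR adjusted p = 0.581) and -0.38 (SE 0.21, edgeR adjusted p = 0.571).

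The remaining 8 genes of the list overlapped between groups, and in each of them null replicate 1 was the highest library. GARS1, the glycine enzyme and the most abundant synthetase mRNA per length, was at 644 and 436 CPM in null and at 487 and 377 CPM in IMP1-OE. YARS1, the tyrosine enzyme, was at 437 and 298 CPM against 321 and 261 CPM, and AARS1, the alanine enzyme, at 474 and 333 CPM against 350 and 316 CPM. MARS1, which charges both initiator and elongator methionine tRNA, was at 314 and 215 CPM against 238 and 212 CPM. EPRS1, a fused enzyme for glutamate and proline, IARS1 (isoleucine), LARS1 (leucine) and TARS1 (threonine) had the smallest differences, with log2 fold changes of -0.15, -0.10, -0.10 and -0.09. In these 8 genes null replicate 2 lay within or near the IMP1-OE range.

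The lower level of the list therefore leaned on null replicate 1. Null replicate 1 exceeded null replicate 2 in 10 of its 12 genes, WARS1 and CARS1 being the exceptions, and the median difference was 0.48 log2 units, beside -0.0025 over all tested genes. This excess of null replicate 1 was not limited to the list. It was present in 7 of the 8 other cytosolic genes (median 0.22) and in 12 of the 17 mitochondrial genes (median 0.21). It was also present in all 8 tested epithelial markers (median 0.63), and the whole list of these markers summed to 27378 CPM in null replicate 1, 19635 CPM in null replicate 2, and 25333 and 25900 CPM in IMP1-OE. The part of this library difference in the levels of the list was not tested. Leaving out null replicate 1 brought the list's median to -0.0053, with 6 of the 12 lower, and that of all 20 cytosolic genes from -0.10 to 0.06. Leaving out null replicate 2 brought the list's median to -0.50, with all 12 lower. Without null replicate 2, 12 of the 38 synthetase genes were lower at an unadjusted edgeR p under 0.05 (31.6%, where 7.8% of all genes were), 9 of them on the list, and HARS1 alone was higher (2.63%, where 7.37% were). Without null replicate 1, 3 were lower (7.89%, where 13.5% were) and 8 were higher (21.1%, where 13.1% were). In that fit 5 synthetase genes passed an edgeR adjusted p of 0.05 (13.2%, where 11.5% of all genes did): CARS1 (adjusted p = 0.0324) and WARS1 (0.0297) on the lower side, and HARS1 (0.0288), VARS1 (0.0158) and TARS3 (0.0207) on the higher side. DESeq2 on the same 3 libraries called HARS1, VARS1 and TARS3 but neither CARS1 nor WARS1 (8.4% of all genes were called), and without null replicate 2 it called NARS1 alone, on the lower side (2.11% of all genes).

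Among the 8 cytosolic genes outside the list, HARS1, the histidine enzyme, was the one with an unadjusted p under 0.05. It was at 155 and 128 CPM in null and at 201 and 193 CPM in IMP1-OE. The IMP1-OE libraries were both above the null libraries and close to each other (1.39-fold, log2 fold change 0.47, SE 0.17, edgeR adjusted p = 0.429). KARS1, the lysine enzyme, was at 185 and 166 CPM in null against 212 and 231 CPM. Its groups lay apart as well, with a log2 fold change of 0.33 (SE 0.16, edgeR adjusted p = 0.507).

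VARS1, the valine enzyme, was at 271 and 181 CPM in null and at 288 in both IMP1-OE libraries. Here null replicate 1 lay just under IMP1-OE and null replicate 2 well below. FARSA and FARSB encode the catalytic and the accessory subunit of the cytosolic phenylalanine enzyme. FARSA was at 82.6 and 76.4 CPM against 86.9 and 98.4 CPM, and FARSB at 66.7 and 45.3 CPM against 66.8 and 75.5 CPM. Both subunits were thus in the same direction, with log2 fold changes of 0.22 (SE 0.18) and 0.34 (SE 0.24). RARS1, the arginine enzyme, was the steadiest synthetase mRNA, at 95.6 and 93.5 CPM against 97.4 and 97.0 CPM, and its direction turned with another scaling (-0.0025 with library totals without ARSI). QARS1, the glutamine enzyme, was at 106 and 133 CPM against 127 and 135 CPM, the only one of the 8 whose groups overlapped.

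The gap between the medians of these sets was present with any library left out. The median of the 8 other cytosolic genes exceeded that of the ATF4 list by 0.64 log2 units with all libraries, and by 0.43 to 0.74 with a library left out. The separation by sign was lost without null replicate 1. There 6 of the 12 list genes were lower and the sets overlapped (highest of the list 0.17, lowest of the others -0.02). Summed over the 12 genes, the list gave 4371 and 3237 CPM in null and 3388 and 2968 CPM in IMP1-OE, so the groups overlapped. The 8 other genes gave 1080 and 919 CPM in null and 1212 and 1263 CPM in IMP1-OE, with no overlap. The ratio of these sums, which does not depend on library scaling, was 4.05 and 3.52 in null and 2.80 and 2.35 in IMP1-OE. Both IMP1-OE libraries were below both null libraries in this ratio. No p is given, because the smallest two-sided p of an exact permutation test is 0.333 at this number of libraries.

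**Figure D2:**
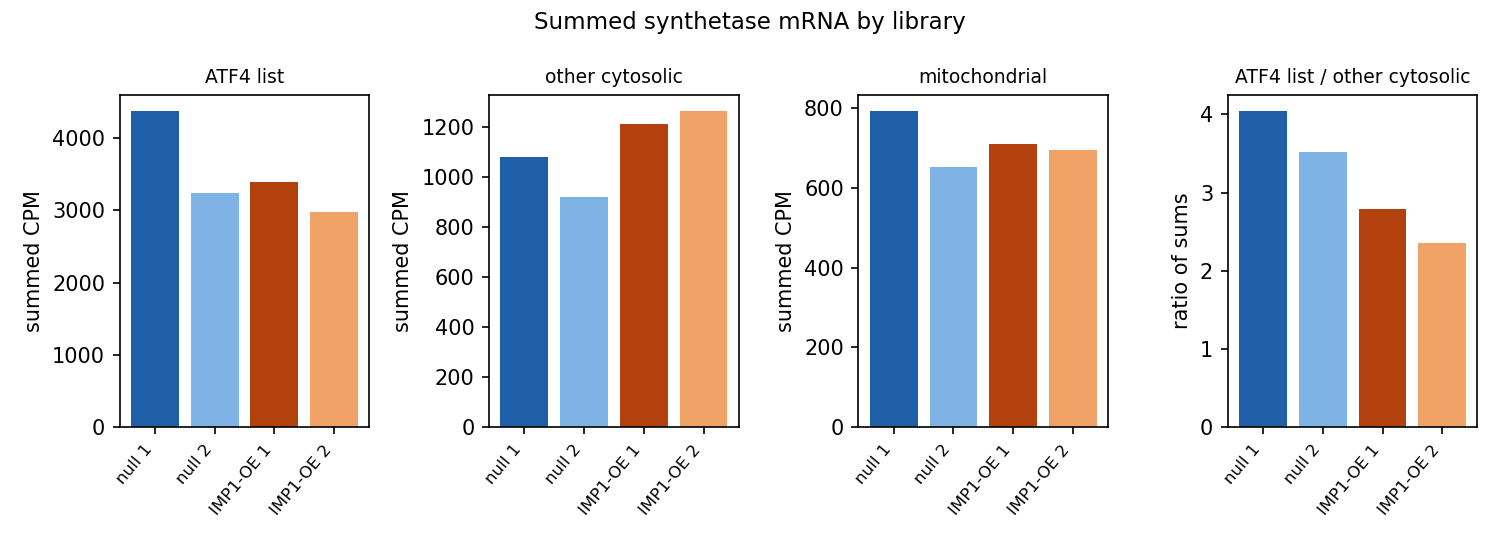
Summed CPM per library (bars, y axis from 0) for the 12 cytosolic synthetase genes of the ATF4 list, the 8 other cytosolic genes and the 17 mitochondrial genes, and the ratio of the first sum to the second. The ratio reads 4.05 and 3.52 for null, then 2.80 and 2.35 for IMP1-OE.

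ATF4 binds composite C/EBP-ATF elements, and the motif TGATGNAAN was searched on both strands of the RefSeq promoter table (GRCh38.p14; 250 bases before to 50 after each annotated start), which held 30 of the 38 synthetase genes. The motif was present in 6 of 10 matched promoters of the ATF4 list, in 0 of 6 other cytosolic promoters and in 1 of 14 mitochondrial promoters, beside 2.54% of the 15198 promoters of measured genes and 1.71% of the 9593 promoters of tested genes. The matches are shown because, among the cytosolic genes whose promoter could be searched, they were found on the ATF4 list alone. That list was made of genes reported as ATF4-dependent, so more matches on it say nothing about these libraries. Each is printed 5′ to 3′ on the strand of the gene with 10 bases on either side, and the motif is in capitals. They lie at chr16:70289676-70289704 (AARS1, minus strand), chr11:3057408-3057436 (CARS1, minus), chr9:92293693-92293721 (IARS1, minus), chr12:57488053-57488081 (MARS1, plus), chr18:57621804-57621832 (NARS1, minus), chr5:33440956-33440984 (TARS1, plus) and chr12:32756076-32756104 (YARS2, minus).
AARS1: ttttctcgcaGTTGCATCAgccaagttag
CARS1: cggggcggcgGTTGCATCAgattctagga
IARS1: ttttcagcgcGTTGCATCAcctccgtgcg
MARS1: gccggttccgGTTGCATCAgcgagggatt
NARS1: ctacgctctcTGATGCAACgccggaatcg
TARS1: gcgcctttcgATTGCATCAgctggtccag
YARS2: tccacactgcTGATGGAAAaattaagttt

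The first base of the motif was at position -3 for CARS1, -5 for MARS1, -14 for IARS1, 1 for TARS1 and 14 for NARS1, counted from 0 at the annotated start, and at -188 for AARS1. AARS1, CARS1, IARS1 and MARS1 carry the same 9 bases, and NARS1 carries their reverse complement. The 6 genes with a match on the list had log2 fold changes from -0.62 (CARS1) to -0.09 (TARS1). The 4 matched genes of the list without these letters in the window were EPRS1, GARS1, SARS1 and WARS1, and they ranged from -0.60 (WARS1) to -0.15 (EPRS1), so the presence of the motif did not order the fold changes within the list. YARS2, whose match differs in its variable bases, stood higher in IMP1-OE. A match is a stretch of letters, and binding was not measured.

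Other genes reported as ATF4-dependent were also mostly lower. In IMP1-OE 26 of 31 tested genes of amino acid synthesis, amino acid uptake and stress had a lower mean, and the median log2 fold change was -0.55. At an unadjusted edgeR p under 0.05, 12 were lower and 0 higher (38.7% lower, where 6.18% of all tested genes were). The groups lay apart on the lower side for 17 (54.8%, where 21.9% were). None passed an edgeR adjusted p of 0.05 with all libraries. An adjusted p under 0.05 in the authors' deposited table was held by 4 of the set, all lower: PCK2 (adjusted p = 7.82e-06), CHAC1 (0.00523), ASNS (0.0137) and PSAT1 (0.0280). DESeq2 on the counts, a repeat of that test, called the same 4 (12.9%, where 1.28% of all genes were). Without null replicate 1 edgeR called 9 (29.0%, where 11.5% of all genes were), 7 lower and 2 higher, the latter being SHMT2 and SLC7A11. Without null replicate 2 it called 8 (25.8%, where 1.89% of all genes were), all lower and ATF4 among them. It called 0 with either IMP1-OE library left out. ATF4 itself was at 149 and 82.3 CPM in null and at 75.4 and 66.8 CPM in IMP1-OE, with no overlap and with null replicate 1 well above the rest (log2 fold change -0.70, SE 0.30, edgeR adjusted p = 0.467).

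PCK2, a mitochondrial phosphoenolpyruvate carboxykinase, had the smallest p of this set, at 143 and 116 CPM in null against 49.8 and 43.1 CPM. ASNS, which makes asparagine, was at 477 and 323 CPM against 212 and 152 CPM. PSAT1, an enzyme of serine synthesis, was at 296 and 192 CPM against 127 and 114 CPM. CHAC1, which degrades glutathione, was at 15.9 and 14.2 CPM against 2.85 and 3.90 CPM. In all 4 genes the IMP1-OE libraries were well below both null libraries, with log2 fold changes of -1.48 (PCK2, SE 0.20), -1.13 (ASNS, SE 0.26), -1.02 (PSAT1, SE 0.24) and -2.16 (CHAC1, SE 0.38). These differences were larger in size than that of any of the 20 cytosolic synthetase genes, and 5 of 26 matched promoters of this set held the motif: those of ASNS, ATF3, CHAC1 and SLC3A2, which were on the lower side, and that of SLC7A1, which was on the higher side. The set was not uniform: XPOT, the tRNA exportin, SLC7A1, SLC7A11, SHMT2 and SLC38A2 were on the higher side. Null replicate 1 exceeded null replicate 2 in 22 of the 31 genes (median difference 0.44 log2 units). The set's median log2 fold change was -0.29 with null replicate 1 left out and -0.73 with null replicate 2 left out, so it stayed lower in both cases. The part of the null libraries' difference in these values was not tested.

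**Figure D3:**
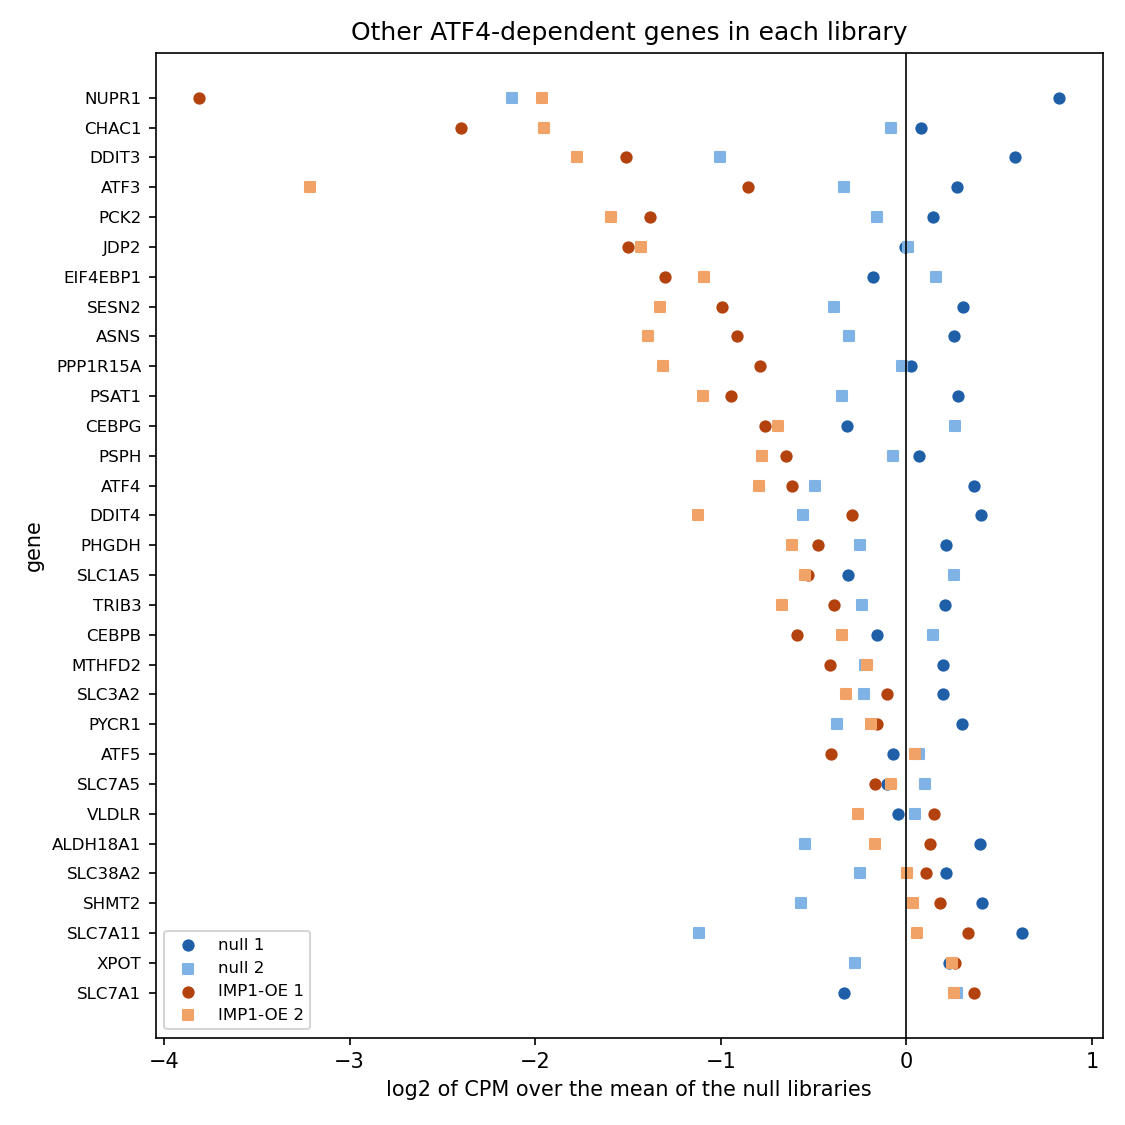
Level of 31 other ATF4-dependent genes (y axis) in each library, as log2 of CPM over the mean of the null libraries (x axis; 0 is that mean). PCK2, CHAC1, ASNS and PSAT1 show both IMP1-OE libraries to the left of both null libraries, while SLC7A11 and SHMT2 show null replicate 2 lowest.

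With all libraries, the multisynthetase complex did not share a direction. Of its 8 enzymes, EPRS1, IARS1, LARS1 and MARS1 were on the lower side and the other 4, among them KARS1, QARS1 and RARS1, on the higher side, with a median log2 fold change of -0.03. This split leaned on null replicate 1. Without that library only 1 of the 8 enzymes was lower (median 0.10), and without null replicate 2, 4 were (median -0.13). The scaffold genes of the complex were all slightly higher and overlapped between groups. AIMP1 was at 70.8 and 55.7 CPM in null and at 64.5 and 75.4 CPM in IMP1-OE. AIMP2 was at 96.2 and 73.3 CPM against 83.7 and 96.3 CPM. EEF1E1 was at 28.9 and 15.0 CPM against 15.5 and 36.6 CPM, a wide spread within both groups. The structural classes of the catalytic domain did not separate the fold changes either. Class I genes (19, with a Rossmann fold) had a median of -0.08, with 10 lower, and class II genes (19, with an antiparallel sheet fold) a median of -0.09, with 11 lower. The fused enzyme EPRS1 was counted in class I only, although its proline part belongs with class II, where PARS2 was counted.

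Mitochondrial synthetases charge the tRNAs used to translate the few mRNAs of the mitochondrial genome, and their own mRNAs were less abundant. Compared per kb of effective transcript length, the median level over libraries was 12.5 CPM per kb for the 17 mitochondrial genes and 71.5 CPM per kb for the 20 cytosolic genes. GARS1 (201 ± 47.5 CPM per kb, SD of 4 libraries), TARS1 (150 ± 20.2) and SARS1 (149 ± 29.7) were at the top, and their spreads overlapped. IARS2 (39.0 ± 4.01) and YARS2 (30.5 ± 4.16) were the highest mitochondrial genes. FARSB was the exception among cytosolic genes at 9.44 ± 1.91 CPM per kb, on a deposited transcript of 6761 nt, whereas its partner FARSA on 1811 nt was at 48.1 ± 5.19 CPM per kb. A single transcript stands for each gene, so a level shifts where the cells use a transcript of another length.

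**Figure D4:**
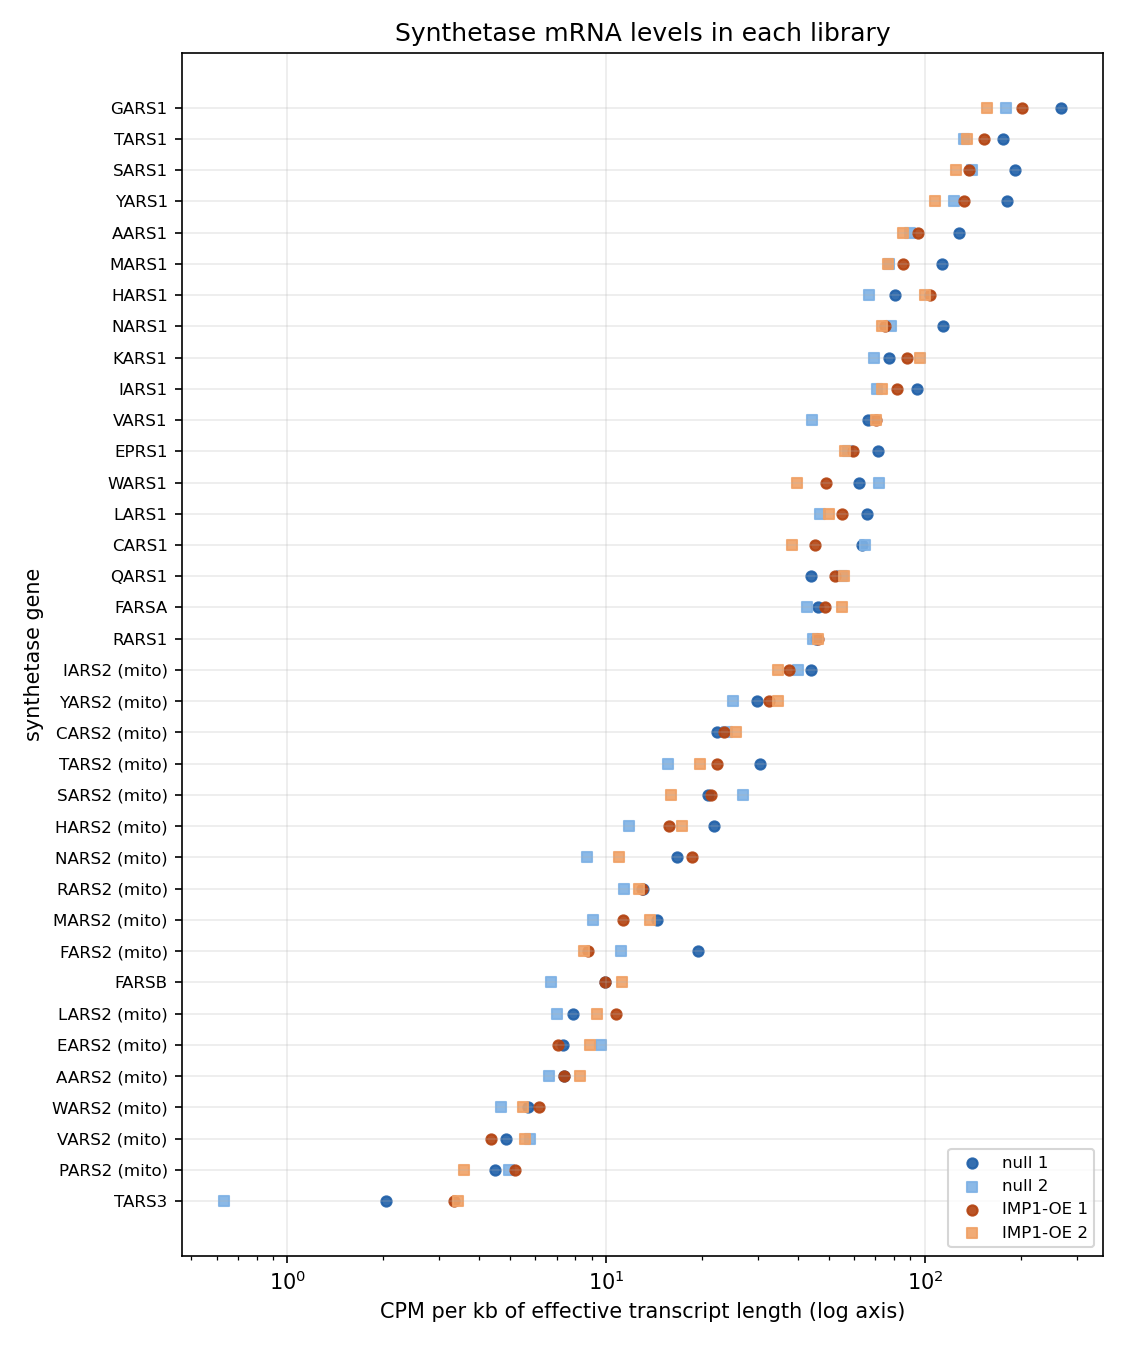
Level of 36 synthetase genes (y axis, ordered by mean, mitochondrial enzymes marked) in each of the 4 libraries, in CPM per kb of effective transcript length (log x axis). Cytosolic genes fill the top of the plot, FARSB lies among the mitochondrial genes and TARS3 is lowest.

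The mitochondrial set showed no common direction. Of its 17 genes, 9 were lower and 8 higher in IMP1-OE. Their median log2 fold change was -0.02, beside -0.10 for the cytosolic set, in which 12 were lower and 8 higher. The groups lay apart for 4 mitochondrial genes (2 lower and 2 higher, 11.8% each, below the shares of 21.9% and 21.3% over all tested genes) and for 11 of 20 cytosolic genes (4 lower and 7 higher). Summed, the mitochondrial genes gave 792 and 652 CPM in null and 710 and 695 CPM in IMP1-OE. The cytosolic sum was 6.88 and 6.38 times the mitochondrial sum in null and 6.48 and 6.09 times in IMP1-OE, so the balance of the compartments overlapped between the groups. No synthetase is encoded by the mitochondrial genome itself.

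FARS2, the mitochondrial phenylalanine enzyme, had the largest difference of the set. It was at 32.1 and 18.4 CPM in null and at 14.6 and 14.1 CPM in IMP1-OE. The IMP1-OE libraries were close together and lay below both null libraries, which differed from each other (1.77-fold, log2 fold change -0.82, SE 0.34, edgeR adjusted p = 0.465). Leaving out null replicate 1 gave -0.36 and leaving out null replicate 2 gave -1.16. Its cytosolic counterparts FARSA and FARSB were on the higher side. IARS2 was the other mitochondrial gene that lay apart on the lower side, at 154 and 140 CPM against 131 and 121 CPM.

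LARS2, the mitochondrial leucine enzyme, and YARS2, the tyrosine enzyme, lay apart on the higher side. LARS2 was at 32.5 and 28.8 CPM in null and at 44.3 and 38.4 CPM in IMP1-OE (log2 fold change 0.43, SE 0.21, edgeR adjusted p = 0.516). YARS2 was at 62.2 and 52.5 CPM against 68.1 and 72.7 CPM (0.30, SE 0.19, edgeR adjusted p = 0.612). The remaining 13 mitochondrial genes overlapped between groups, with log2 fold changes from -0.35 (SARS2) to 0.22 (NARS2). Among them TARS2, HARS2, NARS2 and MARS2 differed more between the null libraries than between the groups: TARS2 was at 82.5 and 42.4 CPM in null and at 60.0 and 53.1 CPM in IMP1-OE, and NARS2 at 41.6 and 21.7 CPM against 46.3 and 27.4 CPM.

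Enzymes for the same amino acid did not always share a direction. Of 14 amino acids with a suffix 1 and a suffix 2 gene, the cytosolic gene was the more abundant per length in all 14, by 2.05-fold (IARS1 over IARS2) to 13.4-fold (AARS1 over AARS2). The log2 fold changes of the pair had opposite signs for 10 and the same sign for 4 with all libraries, and opposite signs for 6 without null replicate 1 (6 to 10 with a library left out). For 9 pairs the ratio in both IMP1-OE libraries lay on the same side of both null libraries, 7 lower and 2 higher. The cytosolic gene was on the ATF4 list in all 7 lower pairs and in neither of the higher ones. Of all tested genes, taken singly and not as ratios, 21.9% lay apart on the lower side and 21.3% on the higher side. WARS1 over WARS2 went from 10.9 and 15.4 in null to 7.94 and 7.24 in IMP1-OE. CARS1 over CARS2 was 2.86 and 2.72 in null and 1.93 and 1.50 in IMP1-OE. YARS1 over YARS2 was 6.08 and 4.91 in null and 4.08 and 3.10 in IMP1-OE. HARS1 over HARS2 was in the other direction, at 3.70 and 5.67 in null and 6.62 and 5.77 in IMP1-OE, with only a narrow gap between the groups. RARS1 over RARS2 (3.48 and 3.93 against 3.58 and 3.66) and TARS1 over TARS2 (5.78 and 8.45 against 6.93 and 6.90) overlapped. No test of a pair's ratio was made, since 2 libraries against 2 cannot give an exact p under 0.333.

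**Figure D5:**
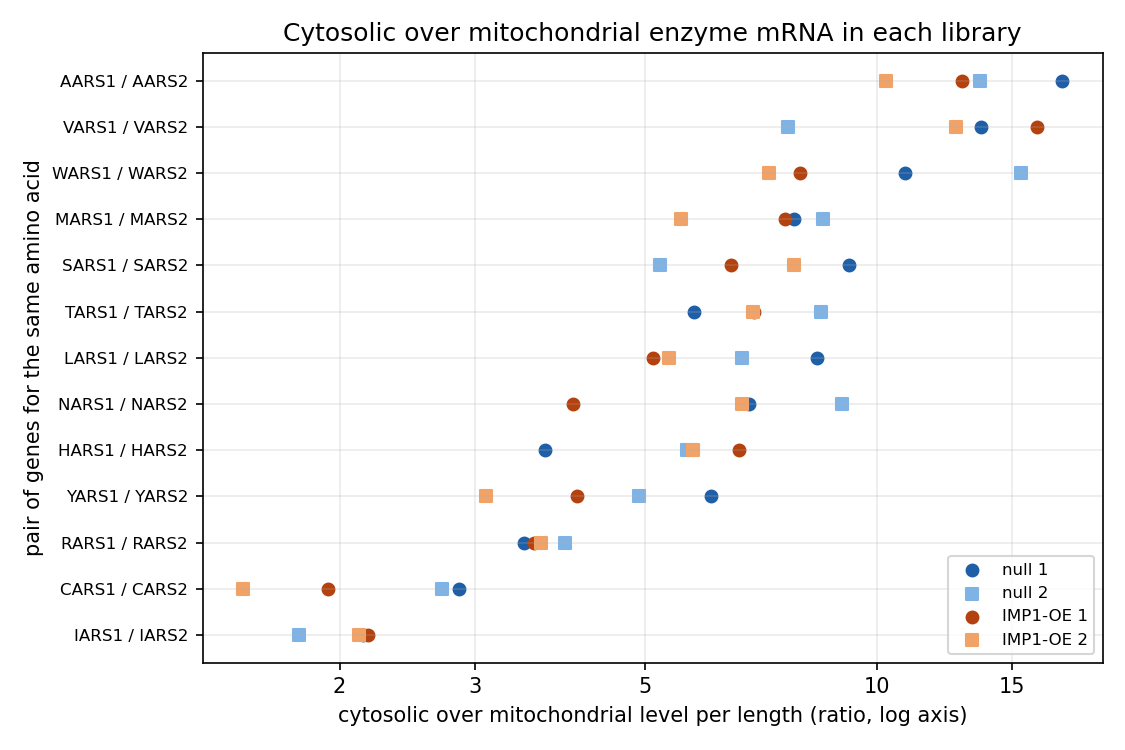
Ratio of the cytosolic to the mitochondrial enzyme mRNA per length (log x axis) for 13 amino acids (y axis) in each of the 4 libraries. The ratio of CARS1, WARS1, YARS1, LARS1 and AARS1 to its mitochondrial counterpart is lower in both IMP1-OE libraries than in both null libraries. So are those of MARS1 and NARS1, with a narrow gap. That of HARS1 is higher, also with a narrow gap.

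TARS3, the threonyl paralog, was the least abundant member and had the largest fold change. Its counts were 72 and 20 in null and 121 and 125 in IMP1-OE, or 7.04 and 2.19 CPM against 11.5 and 11.9 CPM. The IMP1-OE libraries were level and above both null libraries (2.49-fold, log2 fold change 1.32, SE 0.53, edgeR adjusted p = 0.462). Leaving out null replicate 1 raised it to 2.41 and leaving out null replicate 2 brought it to 0.73, so its size depended on the low count of null replicate 2. Its sequence resembles that of TARS1, which was at 150 ± 20.2 CPM per kb where TARS3 was at 2.36 ± 1.31 (SD of 4 libraries), and fragments shared by such paralogs can be assigned to either, as can those of HARS1 and HARS2.

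With all libraries, genes that work beside the synthetases did not share the direction of the ATF4 list. Of 16 charging partners, 6 were lower and 10 higher (median log2 fold change 0.06). At an unadjusted edgeR p under 0.05, 2 were higher and 0 lower, where 4.56% of all tested genes were higher and 6.18% lower. Without null replicate 2, 9 of the 16 were lower (median -0.03), and without null replicate 1, 3 were (median 0.50). QRSL1, a subunit of the mitochondrial amidotransferase that makes glutaminyl-tRNA, was at 9.59 and 5.36 CPM in null against 14.3 and 16.0 CPM. GATC, another subunit of that enzyme, was also higher in both IMP1-OE libraries (11.5 and 8.54 against 12.8 and 16.0 CPM), whereas GATB, the third subunit, was lower in both (21.8 and 20.8 against 14.6 and 14.8 CPM). DTD1, which removes D-amino acids from tRNA, was at 4.40 and 4.05 CPM against 7.99 and 8.56 CPM, and YRDC, an enzyme of tRNA modification, at 27.8 and 19.6 CPM against 31.1 and 40.6 CPM.

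Of 25 genes of tRNA processing and export, 8 were lower and 17 higher (median log2 fold change 0.17). At an unadjusted edgeR p under 0.05, 1 was higher and 0 lower (shares of all tested genes as above): POP1, a protein of RNase P, at 42.5 and 44.3 CPM in null against 65.5 and 56.0 CPM. TRMT10C and RPP30, subunits of the mitochondrial and nuclear RNase P, and POP5 also stood higher in both IMP1-OE libraries, with log2 fold changes of 0.58 (SE 0.29), 0.31 (SE 0.20) and 0.51 (SE 0.35). The median of these 25 genes was 0.31 with null replicate 1 left out and 0.11 with null replicate 2 left out. Of 11 genes that carry charged tRNA to the ribosome, 9 were higher (median 0.15). An unadjusted edgeR p under 0.05 was held by 2 on the higher side, where 4.56% of all tested genes were. It was held by 1 on the lower side, where 6.18% of all tested genes were. Without null replicate 2, 6 of the 11 were lower and their median was -0.10, whereas without null replicate 1 it was 0.46. EEF1G, a subunit of the exchange factor that also binds synthetases, was at 462 and 405 CPM against 622 and 767 CPM (log2 fold change 0.68, SE 0.19, edgeR adjusted p = 0.397), and EEF1B2 at 160 and 144 CPM against 189 and 240 CPM. EEF1A1, the elongation factor itself, was at 5287 and 4354 CPM against 6757 and 7764 CPM. EEF1A2, its tissue-restricted paralog, went the other way, at 30.9 and 32.1 CPM in null against 12.8 and 9.51 CPM. No gene of these 3 sets passed an edgeR adjusted p of 0.05 with all libraries. EEF1A2 had an adjusted p of 0.00810 in the authors' deposited table, and DESeq2 on the counts, a repeat of that test, called it too. Which genes of these sets were called with a null library left out depended on the library and on the method.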

How the data were processed

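RNA of 4 HT-29 samples was analysed. Per the labels' protocols, RNA was broken by heating at high pH, fragments between 18 and 50 nt were selected, both linkers carried random-base identifiers and ribosomal RNA was removed. The submitters' processing notes name kallisto 0.46.2, HISAT2 2.1.0, cutadapt 3.5, fastp 0.21 and DESeq without saying what each did. Genome build, and whether the identifiers served to collapse PCR copies: not given in the sources used here. The deposited values are estimated counts for 20322 targets, 1 transcript per gene, all whole numbers, so rounding changed nothing. The authors' deposited table of the comparison gives log2 fold changes, p-values and adjusted p-values, from which the adjusted p-values are quoted. Its mean normalized counts, a signal in the authors' scaling, were not used. Rows of 2 other sample names, for which there is no label, are not analysed here.

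The test was edgeR 4.0.16 under R 4.3.3: TMM scaling, filterByExpr (12113 genes kept), the quasi-likelihood F test, IMP1-OE against null, no covariate, Benjamini-Hochberg adjustment over all tested genes and a threshold of 0.05. The fit used legacy=FALSE; this version's default, legacy=TRUE, was an alternative. The SE is the size of the log2 fold change divided by the square root of F. Levels between genes are CPM divided by the effective length in kb. Log2 ratios between the null libraries used CPM plus 0.1. Between the replicates of a group the chi-square statistic per degree of freedom was 45.1 (null) and 16.0 (IMP1-OE), so none was merged. The fit was tested on simulated counts. Alternatives were DESeq2 1.42.0, voom of limma 3.58.1, legacy edgeR, RLE factors, library totals without ARSI (the most abundant mRNA), 2 other count filters, the replicate block and leaving out each library. DESeq2 was run on all targets with its default filtering; this setting was picked after its count of calls had been compared with that of the authors' deposited table, and the settings tried before it are given among the alternatives. Members are named in full where its unadjusted p was under 0.05 or where a pair shares an amino acid, and of each other list the 4 genes with the smallest p and the complex's scaffolds. Genes outside this rule were chosen after their values were seen. Results of 2 members are not reported here by name, and they stay in the counts, sums and medians. The members and lists were chosen with earlier results of these data known.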

Additional observations from a re-analysis of the deposited data

How the results depend on the processing

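None of the 38 synthetase genes passed an adjusted p of 0.05 in any of the 8 alternatives that kept all libraries (smallest 0.178), and the sides of the ATF4 list and of the other cytosolic genes held in them, apart from RARS1. Over all genes the number passing was 1 with edgeR, 164 with DESeq2 (163 and 165 with its other filters, added after the data were seen), 0 with legacy edgeR, 0 with library totals without ARSI and 0 with no low-count filter, and 0 to 1395 with a library left out (1395 without null replicate 1, 229 without null replicate 2; with DESeq2 1025, 263, 27 and 33 without null replicates 1 and 2 and IMP1-OE replicates 1 and 2). With the replicate number as a block it was 14; same-numbered libraries deviated together only weakly (correlation 0.13 over genes), and with 2 pairs the numbers are not taken to pair the samples. Synthetase genes at an unadjusted p under 0.05 numbered 3 lower (0 to 12 with a library left out; with DESeq2 10 without null replicate 2) and 2 higher (0 to 8; with DESeq2 6 without null replicate 1), the latter 1 with legacy edgeR, with library totals without ARSI and with no low-count filter. Pairs of opposite sign numbered 10 (6 to 10 with a library left out, 6 without null replicate 1 with edgeR and with DESeq2), a count added after the data were seen. Medians ranged from -0.50 to -0.0053 for the ATF4 list and from 0.21 to 0.48 for the other cytosolic genes with a library left out; both medians were added after the data were seen.

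Of 36 genes, the direction of 15 turned without a library and that of 21 held. The ranges were AARS1 -0.51 to 0.00037, EARS2 -0.27 to 0.12, EPRS1 -0.30 to 0.012, HARS2 -0.40 to 0.49, IARS1 -0.29 to 0.13, LARS1 -0.33 to 0.17, MARS1 -0.48 to 0.067, MARS2 -0.21 to 0.46, NARS2 -0.21 to 0.77, PARS2 -0.40 to 0.14, QARS1 -0.021 to 0.30, RARS2 -0.033 to 0.17, TARS1 -0.29 to 0.13, TARS2 -0.54 to 0.42 and VARS2 -0.28 to 0.064. HARS2 turned from -0.02 to 0.030 with limma-voom and 0.038 with the replicate block, and RARS1 from 0.04 to -0.0025 with library totals without ARSI. The cause was not tested. With a library left out, the lone sample of its group is assumed to vary like the other group.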
